A study of Homo sapiens and Mus musculus with 16 samples.

Results

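Chromatin accessibility was examined around 33 genes of lipid and lipoprotein metabolism in pancreatic ductal adenocarcinoma (PDAC) cells. The genes were taken from a fixed list and followed through 4 lists of ATAC-seq regions, keeping every region within 50 kb of an annotated start site of a member. ATAC-seq maps the stretches of open DNA that a transposase can cut. All 33 members were found among 20007 human protein-coding genes, and all 33 mouse orthologs among 21911. The series holds 16 libraries in 4 groups of 4, and each group is represented by 1 region list. The first pair was HPAF-II, an established human PDAC line, as control (Cas9) cells and as HNF4G-KO cells, in which Cas9 protein and guide RNA had disrupted HNF4G and edited clones had been derived. The second pair was untreated lines from the KPC mouse model of PDAC, derived from the primary tumor (KPC tumour) and from matched liver metastases (KPC Liver mets), both with WT as their labeled genotype. The labels give MEM with serum as the medium of HPAF-II cells and DMEM with serum as that of KPC cells, whereas the study's methods give DMEM for all of them. All 4 groups were cultured cell lines and not tissue. The study's methods describe HNF4G-KO clones that were pooled, and the HPAF-II replicates as independent biological ones.

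HNF4G and its paralog HNF4A are nuclear receptors that bind DNA as dimers and are best known in liver, gut, kidney and pancreas. In hepatocytes and enterocytes, HNF4 factors bind at genes that package dietary and newly made fat into lipoprotein particles, among them the apolipoproteins, MTTP, FABP1 and FABP2. Fatty acid oxidation and sterol or fatty acid synthesis run in most cells, and SREBF1 and SREBF2 encode the transcription factors that switch on the synthetic enzymes when sterol is short.

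A region was called shared when at least 1 bp of it overlapped a region of the other list of its pair, and otherwise control-only, KO-only, tumor-only or mets-only. A promoter region was a region within 1 kb of any annotated start site of the gene. Each region carried a deposited score of unstated scale, so it was used by rank alone: a level is the percentile of the score within the whole list, and a change is the difference between the percentiles that a shared region held among the shared regions of each list, as HNF4G-KO minus control or mets minus tumor. With 1 list per group there was no spread between replicates, so no difference below was tested. Intervals are 95% Wilson intervals, which cover counting error alone.

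The control list held 118107 regions, of which 332 lay near a member, and the HNF4G-KO list held 97047, of which 288 did. The KPC tumour and KPC Liver mets lists held 68074 and 80843 regions, with 289 and 303 near a member. The read depth behind each list was unknown. HNF4G itself had 2 promoter regions in both HPAF-II lists, the higher at the 82.4th percentile in control and the 82.7th in HNF4G-KO, and a small edit would not be visible in such a list. Among the marker genes fixed for identity, 6 of 6 epithelial markers had a promoter region in both HPAF-II lists and 5 of 6 in both KPC lists, while CLDN4 lacked one in the mouse lists. Of 7 hepatocyte markers, 2 (CPS1 and HPX) had one in HPAF-II and 0 in KPC. Promoter regions of 3 of 4 endothelial markers (Kdr, Pecam1 and Vwf) were found in both KPC lists and of 0 of 4 in HPAF-II. Fibroblast markers had them in 3 of 4 (HPAF-II) and 1 of 4 (KPC), and leukocyte markers in 2 of 5 and 1 of 5. The counts were the same in the 2 lists of each pair, and their part in the results below was not tested.

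The HNF4 motif CAAAGTCCA was searched on both strands, since HNF4G was the gene removed. Within the 332 control regions near members, 11 held this exact 9-letter motif, 3 of them control-only (27.3%) and 8 shared. Over whole regions near protein-coding genes, 272 of the 1385 with the motif were control-only (19.6%), against 22.8% of those without it. Of the 8 shared regions, 7 ranked lower in HNF4G-KO, with a median change of -14.4 percentile points and 3 falls of 20 points or more. Of the 257 shared regions near members without it, 103 ranked lower (40.1%), with a median change of 2.11. The same direction was seen over all shared control regions near protein-coding genes, where 56.1% of 1113 with the motif and 44.1% of 66575 without it ranked lower. The 11 regions lay near 9 members, with 2 each at SCARB1 and SREBF1 and 1 each at ACACA, ACOT12, APOH, APOM, CD36, FABP2 and HMGCS1. The sequences below, read from hg38 on the plus strand except where stated, are shown because they carry this motif, printed in capitals as CAAAGTCCA or its reverse complement TGGACTTTG.

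The first 4 are stretches of 200 bases around the motif in shared regions that ranked lower in HNF4G-KO. The CD36 stretch is chr7:80324141-80324340 in an intron of a long noncoding gene, 45078 bp from the nearest CD36 start site, the SREBF1 stretch is chr17:17854988-17855187 in an intron of the neighboring gene TOM1L2, the ACACA stretch is chr17:37385553-37385752 in an ACACA intron, and the FABP2 stretch is chr4:119299350-119299549, 22505 bp from the FABP2 start site.
CD36 intronic region: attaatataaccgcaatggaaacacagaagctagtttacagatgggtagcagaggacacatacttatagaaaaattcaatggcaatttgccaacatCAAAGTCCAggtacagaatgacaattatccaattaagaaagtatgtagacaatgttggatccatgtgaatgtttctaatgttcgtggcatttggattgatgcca
SREBF1 distal region: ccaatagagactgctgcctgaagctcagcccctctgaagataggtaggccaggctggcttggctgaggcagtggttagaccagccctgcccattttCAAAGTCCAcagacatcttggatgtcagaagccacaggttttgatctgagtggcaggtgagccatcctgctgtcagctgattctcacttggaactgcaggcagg
ACACA intronic region: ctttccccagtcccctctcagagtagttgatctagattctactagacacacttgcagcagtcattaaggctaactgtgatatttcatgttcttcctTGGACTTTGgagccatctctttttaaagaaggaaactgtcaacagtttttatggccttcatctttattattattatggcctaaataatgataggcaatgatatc
FABP2 distal region: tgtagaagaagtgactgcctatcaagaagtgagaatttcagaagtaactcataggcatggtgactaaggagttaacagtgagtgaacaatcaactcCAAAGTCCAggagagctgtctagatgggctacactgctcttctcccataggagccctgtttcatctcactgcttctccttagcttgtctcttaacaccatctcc
CD36 encodes the fatty acid translocase, SREBF1 the regulator of lipogenic enzymes, ACACA the carboxylase that makes malonyl-CoA, and FABP2 the intestinal fatty acid binding protein. Among the shared regions of each list, the CD36 region stood at the 70.5th percentile in control and the 28.8th in HNF4G-KO, a change of -41.7. The SREBF1 region stood at 57.3 and 28.0 (-29.3) and the ACACA region at 37.6 and 9.93 (-27.7). The FABP2 region changed by -11.2. The fall of the CD36 region was the largest of any shared region near a member. The 4 were chosen for ranking lower.

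The next 3 stretches carry the motif in regions found in the control list and absent from the HNF4G-KO list. The APOH stretch is chr17:66287997-66288196, within an intergenic region 31236 bp from an APOH start site and nearest to PRKCA. The SREBF1 stretch is chr17:17812937-17813136, from an exonic region 188 bp from an internal SREBF1 start site, and it also holds the SREBP motif TCACNCCAC and the AP-1 motif (TGA and TCA with any base between), likewise in capitals. The ACOT12 stretch is the whole region chr5:81402232-81402447, 8053 bp from an ACOT12 start site.
APOH control-only region: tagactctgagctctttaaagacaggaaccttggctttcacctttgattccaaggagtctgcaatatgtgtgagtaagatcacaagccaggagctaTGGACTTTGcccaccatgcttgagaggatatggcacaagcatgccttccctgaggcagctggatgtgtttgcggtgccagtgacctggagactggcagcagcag
SREBF1 control-only region: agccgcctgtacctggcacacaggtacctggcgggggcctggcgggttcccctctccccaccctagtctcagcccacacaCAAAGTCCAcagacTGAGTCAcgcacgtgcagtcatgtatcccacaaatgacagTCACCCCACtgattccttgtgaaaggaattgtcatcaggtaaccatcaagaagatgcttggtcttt
ACOT12 control-only region: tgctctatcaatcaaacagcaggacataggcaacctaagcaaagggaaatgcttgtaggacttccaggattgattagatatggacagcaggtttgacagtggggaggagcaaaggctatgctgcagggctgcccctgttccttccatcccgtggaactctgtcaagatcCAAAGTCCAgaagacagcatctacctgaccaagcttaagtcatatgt
APOH encodes beta-2-glycoprotein I, a plasma phospholipid-binding protein, and ACOT12 a cytosolic acetyl-CoA thioesterase. The APOH region ranked at the 50.1st percentile of the control list, whereas the SREBF1 region ranked at 9.77 and the ACOT12 region at 11.3. The last 2 were therefore among the low-scoring regions of the control list.

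The HMGCS1 promoter is shown as the contrasting case. It is the RefSeq window chr5:43313132-43313431 (GRCh38.p14), printed on the strand of the gene, from 250 bases before to 50 after the start site.
HMGCS1 promoter: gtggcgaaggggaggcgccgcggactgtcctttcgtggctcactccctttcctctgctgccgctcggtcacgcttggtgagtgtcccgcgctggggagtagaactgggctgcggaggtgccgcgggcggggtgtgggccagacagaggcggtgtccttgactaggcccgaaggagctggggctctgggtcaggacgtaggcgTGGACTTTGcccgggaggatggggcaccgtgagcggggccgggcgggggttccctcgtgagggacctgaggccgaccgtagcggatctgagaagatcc
HMGCS1 encodes the cytosolic HMG-CoA synthase of the sterol pathway. The motif lay 48 to 40 bases before the RefSeq start site, and the HMGCS1 promoter region stood at the 98.7th percentile of shared regions in control and the 98.4th in HNF4G-KO, a change of -0.298. The APOM region, which overlaps a start site upstream of the principal one, also held the motif and changed by 0.23. The 2 SCARB1 regions with the motif changed by -5.9 and -17.6. The motif thus occurred both in regions that ranked lower and in regions at nearly the same rank.

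**Figure D1:**
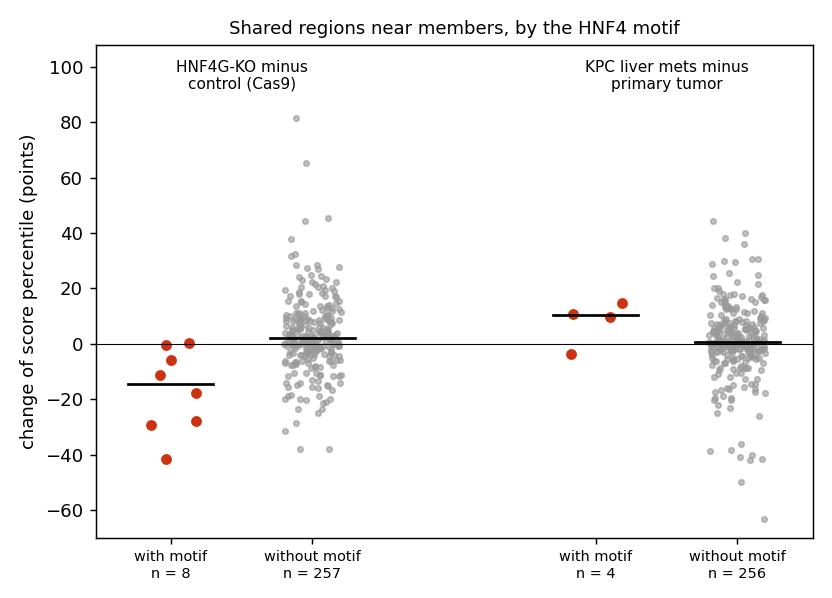
Change of score percentile (points, vertical axis) of each shared region within 50 kb of a member, by whether the region holds CAAAGTCCA on either strand. Each point is 1 region, black bars are medians, and point positions within a column are spread at random. In HPAF-II, 7 of the 8 regions with the motif lie below 0 (median -14.4) against 103 of 257 without it. In KPC, 1 of 4 lies below 0 (median 10.2) against 109 of 256.

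Wide regions hold more motifs by length alone, so the search was repeated in the central 200 bases of every region. Over all 29475 control-only regions 1.06% held the HNF4 motif there, against 0.615% of the 88632 shared control regions and 0.305% of the 6556 KO-only regions. Near members, 2 of 67 control-only regions (2.99%, interval 0.822 to 10.2) and 5 of 265 shared control regions (1.89%, 0.809 to 4.34) held it. All 5 of these shared regions ranked lower in HNF4G-KO (median -27.7), compared with 105 of 260 without it (40.4%). Near protein-coding genes, 196 of the 594 control regions with the motif in the central 200 bases were control-only, against 19738 of the 87028 without it (22.7%), and 64.8% of the shared ones ranked lower, against 44.2%. Whole regions, as given above, ran the other way for the control-only share (19.6% against 22.8%). In the KPC pair, 46.5% of the shared tumor regions near protein-coding genes with the motif ranked lower in mets, against 45.3% without it. The FOXA motif was searched as TGTTTAC on both strands. HNF1 was searched as GTTAATNAT and the direct repeat core as CAAAGGTCA. GATA was searched as AGATAAG, and SREBP and AP-1 as given above. No motif letters contain those of another, although matches may overlap. Among these the direct repeat core, which nuclear receptors also bind, had 30.8% control-only regions near protein-coding genes, SREBP 27.1%, and HNF1, FOXA, GATA and AP-1 from 23.6% to 24.5%. Near members the direct repeat core was held centrally by 1 control region.

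Of the 33 members, 25 were matched in the RefSeq promoter table, with 42 promoters in all; the others were APOA1, APOB, APOC3, FASN, DGAT1, DGAT2, SCARB1 and TTR. The HNF4 motif lay in 1 of the 42 (HMGCS1, 2.38%) and in 0.384% of all 35116 promoters of 300 bases. HNF1 was found in 2 (CD36 and NPC1L1) and in 0.792% of all. SREBP was found in 2 (ACSL1 and SREBF2) and in 1.13% of all. FOXA was found in 1 (APOA2, 2.38%; 3.42% of all) and the direct repeat core in 0 (0.407% of all). GATA was found in 7 of the 42 (16.7%; 2.68% of all), in ABCG5, ABCG8, ACADVL, APOA2, APOE, CD36 and FABP2, and AP-1 in 6 (14.3%; 7.71% of all). ABCG5 and ABCG8 are transcribed away from each other from a shared stretch, so their windows overlap. Their GATA matches are the same bases, counted for each gene. These are matches of letters and not sites of binding.

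By the 1 kb rule, promoter accessibility divided the members by role more than by group. Of the 33 members, 23 had a promoter region in control, 21 in HNF4G-KO, 22 in KPC tumour and 21 in KPC Liver mets. These were 69.7%, 63.6%, 66.7% and 63.6% of the members, beside 74.9%, 72.9%, 57.9% and 59.1% of all protein-coding genes. In 18 members a promoter region was present in all 4 lists, and in 8 it was present in none. The enzymes of synthesis and oxidation made up most of the 18, and the intestinal and hepatic carriers and transporters made up all of the 8. This division rests on the 1 kb limit. Within 2 kb the counts were 27, 25, 23 and 23, and roles were not recounted there. In control the region nearest to NPC1L1, at the 77.3rd percentile, lay 1786 bp from its start site. Members also differ in annotated start sites, such as 1 at FABP2 and 33 at ACADVL, which was not adjusted for. The largest departures between species were the 4 members whose promoter regions were found in both lists of 1 species only (APOM and CD36 in human, APOH and ACOT12 in mouse). The regions of APOM, CD36 and APOH lay at start sites other than the principal one.

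Among the 8 members for lipid synthesis and storage, 7 had a promoter region in every list. HMGCS1 held the highest ranks, at the 99.0th and 98.5th percentiles in control and HNF4G-KO and the 99.5th and 99.8th in KPC tumour and mets. SREBF2, the master regulator of sterol genes, stood at 90.5, 93.7, 69.2 and 77.8 in the same order of lists. DGAT1, which adds the last fatty acid to triglyceride, stood at 87.4, 93.1, 98.4 and 99.5, and the unrelated enzyme DGAT2 at 79.7, 83.4, 64.1 and 58.1. FASN, the fatty acid synthase, stood at 63.0, 73.4, 63.1 and 78.2. ACACA stood at 79.7, 85.7, 89.5 and 89.6, and SREBF1 at 60.1, 73.3, 73.6 and 85.0. For both human genes the highest promoter region was at a different start site in the 2 lists. The ACACA region that led in control changed by 8.53 among shared regions, and the SREBF1 one by 0.566. PLIN2, which coats lipid droplets, was the exception, with a promoter region in control, tumor and mets at low ranks of 27.3, 7.47 and 9.5 and none in HNF4G-KO.

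Of the 8 members for fatty acid activation and oxidation, 7 had a promoter region in every list. CPT1A, the mitochondrial gatekeeper of oxidation, stood at 84.8, 84.3, 96.4 and 97.9, and CPT2, its partner in the inner membrane, at 94.2, 92.3, 60.4 and 64.7. HADHA, a subunit of the trifunctional protein, stood at 88.2, 87.9, 99.7 and 98.8. The dehydrogenases ACADM (88.9, 94.5, 84.3 and 79.0) and ACADVL (79.9, 84.5, 75.8 and 85.0) and the acyl-CoA synthetase ACSL1 (83.5, 81.9, 73.8 and 73.4) were similar, the human ACSL1 values being from different start sites. ACSL5, a synthetase prominent in gut, was lower, at 33.7, 36.8, 17.6 and 21.6. ACOT12 lacked a promoter region in human and stood at 94.8 and 93.8 in mouse. Several of these ranks belong to start sites other than the principal one. The human CPT1A region lay 66 bp from the most upstream CPT1A start site in control. Those of Cpt1a, Hadha and Acot12 in mouse lay at internal start sites. At the principal start site of CPT1A the nearest region stood at 18.8 in both HPAF-II lists and at 19.0 and 33 in KPC, that of Hadha at 48.9 and 59.0, and that of Acot12 at 29.7 and 35.3.

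The lipoprotein assembly genes and plasma carriers were divided. MTTP, which loads lipid onto APOB, stood at 96.2, 91.2, 93.3 and 96.0, but its promoter region lay at an upstream start site. In both species that region was also a promoter of TRMT10A. The nearest region to the principal MTTP start site was 10603 bp away in control and 11847 bp away in tumor. APOB, the structural protein of chylomicrons and VLDL, stood at 31.6 and 16.1 in HPAF-II and at 86.3 and 76.3 in KPC. APOE stood at 45.0 and 32.4 in HPAF-II and at 5.09 and 3.68 in KPC. APOM, carried mainly on HDL, stood at 84.7 and 81.2 in HPAF-II, in a region that was also a promoter of BAG6. It had no promoter region in KPC. APOH had none in HPAF-II and stood at 76.1 and 76.5 in KPC. That mouse region lay at a start site other than the principal one and was also a promoter of Prkca. The region nearest to the principal Apoh start site was 16644 bp away in tumor and 16658 bp away in mets. TTR, the thyroxine and retinol carrier, stood at 46.9, 35.0 and 30.9 and had no promoter region in mets. In human its region lay near an upstream start site, 797 bp away, and not at the principal one, which had no region within 1 kb. That region lay in an exon of DSG2-AS1 and was also a promoter of DSG2-AS1. APOA4 had a promoter region in control alone. APOA1, APOA2 and APOC3 had none in any list, although regions of high rank lay nearby: in control the region nearest to the APOA1 start site was 1054 bp away at the 77.2nd percentile, and that nearest to APOA2 was 1892 bp away at the 93.1st.

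Of the 7 members for uptake and transport, SCARB1, the HDL receptor, had a promoter region in every list (65.5, 76.6, 83.8 and 71.7). CD36 had one in both HPAF-II lists (60.9 and 52.6), at a start site other than the principal one, and none in KPC. FABP1, FABP2, the sterol exporters ABCG5 and ABCG8 and the intestinal cholesterol importer NPC1L1 had none in any list. By the principal start site alone the counts were 18, 17, 19 and 18 of 33. The human regions of APOM, CD36, MTTP, PLIN2 and TTR lay at other start sites of those genes, as did the mouse regions of Acaca, Apoh and Mttp.

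Removal of HNF4G was accompanied by the loss of a promoter region at 2 members, APOA4 and PLIN2, and by the gain of a promoter region at 0. Over all protein-coding genes 2.69% had a promoter region in control and none in HNF4G-KO, and 0.635% the reverse. Both lost regions were weak. The APOA4 region, chr11:116823353-116823631, lay 49 bp upstream of the start site at the 8.12th percentile. The PLIN2 region, chr9:19118974-19119224, lay 528 bp from an internal start site at the 27.3rd percentile, 8268 bp from the principal one. Both are shown whole, on the plus strand of hg38, as the promoter regions that set the 2 HPAF-II lists apart. None of the 7 motifs was found in either.
APOA4 control-only region: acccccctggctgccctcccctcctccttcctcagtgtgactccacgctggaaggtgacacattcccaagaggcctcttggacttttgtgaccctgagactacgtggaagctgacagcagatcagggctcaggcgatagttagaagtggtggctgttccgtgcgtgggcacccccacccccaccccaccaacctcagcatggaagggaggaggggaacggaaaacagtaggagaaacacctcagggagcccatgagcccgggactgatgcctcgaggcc
PLIN2 control-only region: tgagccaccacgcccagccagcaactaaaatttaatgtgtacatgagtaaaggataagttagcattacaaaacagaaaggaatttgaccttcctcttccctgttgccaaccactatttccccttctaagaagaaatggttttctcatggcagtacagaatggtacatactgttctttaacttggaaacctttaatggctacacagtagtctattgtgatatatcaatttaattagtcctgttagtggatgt
APOA4 encodes an apolipoprotein of intestinal chylomicrons, and its region lay in the cluster it shares with APOA1 and APOC3.

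Counting regions and not genes, 10 of the 49 control regions at member promoters were control-only (20.4%, interval 11.5 to 33.6), beside 13.5% of the control regions at promoters of any gene near protein-coding genes. They belonged to ACADM, APOA4, CD36, DGAT2, FASN, PLIN2, SCARB1 and TTR, with 1 each, and SREBF1, with 2. All of these members except APOA4 and PLIN2 kept another promoter region in HNF4G-KO. Of the 42 HNF4G-KO regions at member promoters, 1 was KO-only, at FASN (120 bp from a start site, 34.3rd percentile). It lay beside the control-only FASN region at chr17:82097052-82097590 (33.9th percentile) without overlapping it.

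Across the whole 50 kb, 67 of 332 control regions near members were control-only (20.2%, 16.2 to 24.8), against a background of 22.7% of regions near protein-coding genes. Of 288 HNF4G-KO regions, 15 were KO-only (5.21%, 3.18 to 8.41), against 6.41%. Regions within 50 kb of the lipid genes were therefore lost at about the rate of regions near all genes. In both lists the background lay within the interval. A member was the nearest protein-coding gene for 170 of the 332 control regions (51.2%) and 150 of the 288 HNF4G-KO regions (52.1%). The others lay nearer to another gene. Where a member was nearest, the control-only and KO-only shares were 21.8% and 8.0%. Within 10 kb the control-only share was 24.6%, against 19.9% for all genes. In the upper 50% of each list by score it was 21.8%, against 19.6%, so its order against the background rests on the setting. With lists cut to equal size the control-only and KO-only shares were 12.5% and 11.1% (background 11.9% and 11.3%). Control-only regions were found near 30 of the 33 members and near 76.8% of all protein-coding genes. By role the control-only share was 26.8% of 71 regions for uptake and transport (17.9 to 38.1), 19.8% of 91 for oxidation, 18.0% of 111 for synthesis and 16.9% of 59 for carriers, all with intervals that held the background. The control-only regions scored low, with a median at the 22.3rd percentile, against the 63.0th for the shared ones.

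CD36 and SCARB1 had the most control-only regions, with 6 each, of 19 and 28 regions. At CD36 they ranked between 3.24 and 39.1 and lay at distances from 0 to 45846 bp of a start site. HMGCS1 had 5 of 12, all outside its promoter region, which was shared and among the highest-ranked of both lists. ACOT12 had 3 of 6 and HADHA 3 of 7. On the KO side APOA1, APOA4 and APOC3 had 2 of 10 each, which were the same 2 regions of the apolipoprotein cluster, at percentiles of 0.221 and 9.66. FABP1 had 1 of 2 and ACOT12 1 of 4.

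The highest-ranked control-only regions stood near APOH (50.1), FABP2 (50.1), ACACA (48.4), APOA4 (47.1) and DGAT2 (46.5). The APOA4 one lay at the promoter of APOA5, a neighboring apolipoprotein gene that activates lipolysis of plasma triglyceride. The FABP2 region, chr4:119314397-119314694, lay 7444 bp from the FABP2 start site and was the nearest region to it in control. It is shown because it held an HNF1 and a GATA motif, in capitals, and no HNF4 motif.
FABP2 control-only region: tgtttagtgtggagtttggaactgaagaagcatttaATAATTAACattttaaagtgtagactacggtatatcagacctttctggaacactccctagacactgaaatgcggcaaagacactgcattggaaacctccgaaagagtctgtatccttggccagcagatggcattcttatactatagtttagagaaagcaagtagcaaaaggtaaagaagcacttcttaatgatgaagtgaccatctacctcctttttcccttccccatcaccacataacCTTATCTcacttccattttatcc
In HNF4G-KO the nearest listed region to FABP2 was 21040 bp away. The highest-ranked KO-only regions stood near HADHA (37.8, at the promoter of GAREM2), CPT2 (34.3), FASN (34.3), SCARB1 (30.4) and FABP1 (26.5).

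Among the 265 shared HPAF-II regions near members, the median change was 1.62 percentile points (quartiles -4.17 and 8.92), beside 1.09 over all shared regions near protein-coding genes. Ranked in the whole lists, which differ in length, the members' median was -2.91, so its direction rests on the ranking. Falls of 20 points or more were seen in 14 (5.28%; background 5.0%) and rises of 20 or more in 24 (9.06%; background 7.54%). The 39 shared regions at member promoters had a median change of 6.89, beside 2.38 at all promoters, and the 153 distal ones of 0.0117, beside 0.387. The change was thus larger at promoters than at distal regions both near members and over all genes. By role the medians were 3.02 for synthesis, 2.79 for oxidation, 1.52 for carriers and -0.216 for uptake and transport.

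The falls lay mainly at a few genes. ACACA had 4, CD36 3, ABCG8 (with ABCG5) 2, ACSL1 2, and SREBF1, SCARB1 and SREBF2 1 each. The smallest CD36 fall (-23.5) was paired with the same HNF4G-KO region as a CD36 rise (20.3). The smallest ACACA fall (-21.3) lay in an intron of TADA2A, and the SREBF2 one in an intron of SHISA8. Beside the CD36 region printed above, a second one at chr7:80346571-80347025 stood at 63.3 in control and 25.1 in HNF4G-KO (-38.1). An ACACA intron region at chr17:37092078-37092496 stood at 51.5 and 13.6 (-37.9). A region over an ABCG8 exon, chr2:43847865-43848540, stood at 65.0 and 33.5 (-31.5), although it did not pair 1 to 1, and a region 12639 bp from the ABCG8 start site fell from 69.1 to 48.8 (-20.3). Of the 49 shared regions near carrier genes 0 fell by 20 points or more, which allows a share of up to 6.12%.

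The rises lay near 14 members, and 7 of the 24 were at member promoters. These were 17.9% of the 39 shared regions at member promoters, beside 9.94% at all promoters of protein-coding genes. Among the 24 rises, 7 regions did not pair 1 to 1, as against 2 of the 14 falls. An SREBF2 promoter region, described below, was among those 7. The FASN promoter region stood at 51.0 in control and 71.5 in HNF4G-KO (20.6), and the SCARB1 promoter region at 54.2 and 74.9 (20.7). SREBF1 had a region at an internal start site that stood at 42.9 and 71.3 (28.4). At ACSL1 the start sites moved apart: the region at the principal start site stood at 53.6 and 80.6 (27.0), and the region at an internal start site stood at 78.1 and 57.2 (-20.9). A further ACSL1 region at another internal start site changed by -11.7. The ranks at the ACSL1 start sites thus changed order between the lists.

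The 5 largest rises were at SREBF2 (81.4), DGAT1 (65.1, at the promoter of FBXL6 and SLC52A2), FASN (45.3, at the promoter of RAC3) and SREBF1 (44.4 and 37.9, both at RAI1). In all but the FASN case, the HNF4G-KO list held 1 wide region where the control list held more than 1, so that a part was set against a merged region. The SREBF2 region of 347 bp was paired in this way with the main SREBF2 promoter region, whose own change was 5.85. Among regions that paired 1 to 1, the largest rises were at FASN (45.3), CPT1A (32.5), APOH (28.5), SREBF1 (28.4) and ACACA (27.6). The largest falls among them were the 2 at CD36 and those at ACACA and SREBF1 given above, followed by a SCARB1 region that stood at 30.6 and 1.94 (-28.6).

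The KPC pair asks whether the line from the primary tumor and the line from liver metastases differ at these genes. The paper describes 1 primary tumor line and 1 matched metastasis line. A difference between these lines and one between tumor and metastasis in general cannot be told apart. Promoter status differed at 1 member, Ttr, which had a promoter region in tumor (30.9th percentile, over its principal start site) and none in mets, where the nearest region lay 22133 bp away. Over all genes 1.06% had a promoter region in tumor and none in mets, and 2.2% the reverse, which was seen at 0 members. Of 289 tumor regions near members, 29 were tumor-only (10.0%, 7.08 to 14.0; background 8.15%), and of 303 mets regions, 42 were mets-only (13.9%, 10.4 to 18.2; background 17.7%). Both backgrounds lay within the intervals. A member was the nearest protein-coding gene for 119 of the 289 tumor regions (41.2%) and 125 of the 303 mets regions (41.3%). Where a member was nearest, the tumor-only and mets-only shares were 11.8% and 15.2%. With lists cut to equal size the tumor-only share was 16.5% and the mets-only share 9.28%, so their order rests on list length. The tumor-only share was 18.8% of 48 regions for uptake and transport (10.2 to 31.9, above the background) and 4.82% of 83 for oxidation (1.89 to 11.7). For the 11 textbook HNF4 targets among the members it was 17.6% of 74 regions (10.6 to 27.8), again above the background. These intervals treat regions of the same gene as independent, were read in several sets, and are not tests. Fabp1 and Fabp2 belong to both the uptake and the target sets, so these are not separate observations. Of these 13 tumor-only regions, 4 were near Ttr and 3 near Fabp2, and the share without these genes was not computed. The mets-only share near the same 11 targets was 16.4% of 73 (9.66 to 26.6), against a background of 17.7%.

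Ttr had the most tumor-only regions, 4 of 9, followed by Fabp2 with 3 of 7, Plin2 with 3 of 16, Scarb1 with 3 of 19 and Apob with 2 of 9. They were of low to middling rank, and the highest were near Apoa2 (31.7), Ttr (30.9 and 24.0), Apob (30.8) and Fabp2 (24.8). The Fabp2 region, chr3:122876905-122877202 of mm10, is shown whole on the plus strand because it held the HNF4 motif.
Fabp2 tumor-only region: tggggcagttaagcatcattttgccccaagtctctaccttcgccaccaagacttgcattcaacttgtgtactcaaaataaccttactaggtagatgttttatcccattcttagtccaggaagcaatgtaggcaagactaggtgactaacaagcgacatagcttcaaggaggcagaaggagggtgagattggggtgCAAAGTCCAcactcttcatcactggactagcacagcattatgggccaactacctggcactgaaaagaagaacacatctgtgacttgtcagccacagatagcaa
A second tumor-only region with the motif lay 6640 bp from an Apob start site at the 4.65th percentile. These were 2 of the 6 tumor regions near members that held the motif, while 0 of the 4 mets regions with it were mets-only. Near all protein-coding genes, 6.41% of the tumor regions with the motif were tumor-only, against 8.18% without it, and 12.0% of the mets regions with it were mets-only, against 17.7%.

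Among mets, Cpt1a had the most mets-only regions, 4 of 16, all between 1135 and 22308 bp from a start site, followed by Acadm (3 of 9), Acot12 (3 of 11), Plin2 (3 of 16) and Apoa4 (2 of 8). The highest-ranked were near Srebf2 (55.7), Acadm (43.3), Apoa1 (42.0), Fabp1 (37.6) and Dgat1 (35.4, at the promoter of Tmem249). The Srebf2 one lay in an intron of Mei1, 27699 bp from the nearest Srebf2 start site. Its stretch chr15:82119179-82119378 (mm10, plus strand) is shown because it held the direct repeat core, in capitals as the reverse complement TGACCTTTG.
Srebf2 mets-only region: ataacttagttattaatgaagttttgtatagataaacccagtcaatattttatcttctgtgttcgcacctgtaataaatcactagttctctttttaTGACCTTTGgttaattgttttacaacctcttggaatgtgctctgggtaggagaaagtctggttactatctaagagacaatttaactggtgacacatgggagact
Of the 42 mets-only regions near members, 2 held this core in their central 200 bases (4.76%, 1.32 to 15.8), beside 0.807% of all 16355 mets-only regions. The other lay near Dgat2.

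The 260 shared KPC regions near members had a median change of 0.854 (quartiles -4.25 and 7.95), beside 0.978 for the background. Falls of 20 points or more were seen in 15 (5.77%; background 6.82%) and rises in 16 (6.15%; background 7.67%). The 38 shared regions at member promoters had a median change of 0.47, with 1 fall and 0 rises of 20 points or more, and the latter count allows a share of up to 7.89%. Of the 153 distal regions near members, 7.19% fell and 8.5% rose by as much. Among all regions near protein-coding genes the figures were 4.89% and 3.72% at promoters and 7.81% and 9.5% at distal regions.

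Hadha had the largest fall. An intron region 644 bp from an internal start site, chr5:30139906-30140383, stood at 82.7 in tumor and 19.7 in mets (-63.1). Another pair of regions near Hadha stood at 67.7 and 27.6 (-40.2) and at 43.3 and 1.4 (-41.9), while the region at the principal start site changed by 5.63. The stretch chr5:30140044-30140243 of the first (mm10, plus strand) is shown as the center of the region with the largest fall near any member, with AP-1 motifs in capitals.
Hadha intronic region: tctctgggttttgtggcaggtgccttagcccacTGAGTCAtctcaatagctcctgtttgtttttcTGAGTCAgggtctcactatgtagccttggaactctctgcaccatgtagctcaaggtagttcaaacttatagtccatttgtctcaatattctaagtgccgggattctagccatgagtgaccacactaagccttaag
Further falls were found near Plin2 (57.4 and 7.44), Apoe (52.0 and 10.4, at the promoter of Apoc2) and Cpt1a (71.8 and 31.0). Near Fabp2, the region nearest to its start site, 3038 bp away, stood at 89.1 and 50.9 (-38.2). The largest rises were near Srebf1 (1.39 and 45.7, in Tom1l2), Apob (26.5 and 66.6), Scarb1 (0.48 and 38.8, a narrow region paired with a wider one), Apom (17.6 and 53.8, in Aif1) and Acadvl (3.02 and 33.7, likewise paired with a wider one). That intron region also counts as a promoter region by the 1 kb rule, and it was the promoter region that fell by 20 points or more. Among the others, an Acaca promoter region stood at 61.0 and 42.1 (-18.9), Scarb1 at 82.3 and 65.1 (-17.3), Apob at 85.0 and 70.6 (-14.4), Fasn at 59.8 and 73.0 (13.2) and Srebf1 at 71.2 and 81.4 (10.2).

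Other genes of the same pathways were counted in the same way. All 13 genes of sterol synthesis, 10 of fatty acid synthesis and esterification, and 11 of fatty acid oxidation had a promoter region in each of the 4 lists. Of 12 genes of lipoprotein remodeling and uptake, 9 had one in control, 8 in HNF4G-KO, 5 in KPC tumour and 6 in KPC Liver mets. The HPAF-II difference was APOA5, and the KPC difference was Abca1, the cholesterol efflux transporter, present in mets. Control-only shares in these lists ran from 18.9% to 25.0% and mets-only shares from 12.2% to 16.0%. Differences in promoter status between the lists of a pair were confined, among the members and these 4 lists of genes, to APOA4, PLIN2, TTR, APOA5 and Abca1.

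The 11 textbook HNF4 targets among the members (APOA1, APOA2, APOA4, APOB, APOC3, APOH, APOM, MTTP, FABP1, FABP2 and TTR) had promoter regions in 5 cases in control, 4 in HNF4G-KO, 4 in KPC tumour and 3 in KPC Liver mets. Those of MTTP, APOM and TTR in HPAF-II and of Mttp and Apoh in KPC lay at start sites other than the principal one. Near them 13 of 58 control regions were control-only (22.4%, 13.6 to 34.7) and 5 of 52 HNF4G-KO regions were KO-only (9.62%, 4.18 to 20.6). Their 45 shared HPAF-II regions had a median change of 1.15, with 0 falls of 20 points or more (up to 6.67% allowed) and 4 rises. The 22 other members had 54 of 274 control-only regions (19.7%), a median change of 1.87 and 14 falls. The background of 5.0% falls lies under the limit that 0 of 45 allows, so a difference between these groups was not detectable here.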

How the data were processed

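ATAC-seq libraries were made with the Omni-ATAC protocol and sequenced on a NovaSeq instrument. Per the labels, reads were processed with Bowtie2 2.2.6, MACS2 2.1.1.20160309 and DiffBind (version not given in the sources used here) on hg38 and mm10. The authors deposited 1 region list per group of 4 libraries, with a score per region whose scale is not stated. How the 4 libraries were combined and the depth of each are not given in the sources used here. The score was used by rank.

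Start sites were taken from GENCODE releases 44 (hg38) and M21 (mm10). Regions within 50 kb of a start site of a member were kept, and regions near several members were counted once in totals and for each member in gene counts. Shared regions were paired by their longest overlap. A change of 20 percentile points was used as the threshold for counting. Named regions were, for each list, those of members with the most regions in 1 list of a pair and the 5 highest-ranked of these, the 5 largest rises and falls of each pair, and the promoter regions in 1 list of a pair. Regions holding the HNF4 motif and the ACSL1 regions were named after their values were seen. Motif letters were searched in whole regions, in the central 200 bases, and in RefSeq promoter windows. Sequences come from hg38, GRCm38 and, for HMGCS1, RefSeq GRCh38.p14. The members, gene lists, motifs and rules were chosen with earlier results of these data known. The counting code was tested on simulated data. Alternatives covered the distance, the overlap, list size, start sites, pairing and promoter width. Python 3.11.15, numpy 2.4.6, pandas 2.3.3 and scipy 1.17.1 were used.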

Additional observations from a re-analysis of the deposited data

How the results depend on the processing

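No paired analysis was possible because each group has 1 region list, and for the same reason no library could be left out. Of 90 alternative values, 80 stayed near the value reported (shares inside its counting interval, medians inside the 95% order-statistic interval of the median, and counts within 1.5 times). The median change in HPAF-II was 3.74 within 10 kb and turned to -2.91 when percentiles were taken in the whole lists, since the low-scoring control-only regions raise the rank of shared regions in the control list, and that in KPC was then 3.76. With shared regions needing 50% cover, the control-only share was 25% (all genes 26.6%). In the upper 50% of each list by score, the tumor-only share was 6.34% (all genes 7.9%) and the mets-only share 19.3% (20.4%). With lists of equal size, the control-only share was 12.5% (all genes 11.9%), KO-only 11.1% (11.3%), tumor-only 16.5% (14.1%) and mets-only 9.28% (10.9%), so the order within the KPC pair turned and that within the HPAF-II pair narrowed. Counts of members with a promoter region stayed within 1.5 times the reported ones under every alternative. An alternative added after seeing the data, the principal start site alone, gave 18, 17, 19 and 18 members for control, HNF4G-KO, tumor and mets.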
